A study of Mus musculus with 2 samples.

Results

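The Serpin genes encode a family of proteins, most of which block proteases. RNA sequencing measured them in mouse samples labelled as adipose, with 1 library per genotype. The members were all rows of the deposited table that were annotated as protein-coding and had a symbol starting with Serpin, which gave 61 of 22046 protein-coding genes and of 54532 genes in all. The 2 genotypes were WT and Trappc9 knock out. Trappc9 is a subunit of TRAPP, a complex that acts in vesicle transport. Both groups were of mice aged 3 to 4 weeks, and no treatment is labelled. The knockout allele, the strain and the sex are not given in the sources used here. The design text speaks of abdominal fat pads from 3 WT and 3 KO mice, digested with collagenase, whereas a protocol in the labels speaks of frozen pads, and the titles name stem cells. Which material was sequenced, and whether a library pools animals, is not stated. A difference below is therefore one between 2 libraries, with no replicate check and no p-value.

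A serpin holds a flexible loop that a protease mistakes for a substrate. Once the loop is cut, it inserts into the body of the serpin and drags the protease along, which leaves both locked together and inactive. Some members have lost this activity and carry hormones, or assist the folding of other proteins. The family is divided into clades by the letter after Serpin. Clade A holds the antitrypsin and antichymotrypsin kind, mostly secreted. Clade B proteins act mainly inside cells. Clades C, D, E, F, G and I are secreted, and many of their members inhibit proteases of clotting, clot removal, complement or tissues. The clade H protein Hsp47 is a collagen chaperone of the endoplasmic reticulum. In fat pads, collagen-making stromal cells, vessels, blood-borne proteins and immune cells are all possible sources of serpin transcripts.

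Fragments recovered from the values numbered 13705193 (WT) and 14783728 (KO). Levels are deposited FPKM, fragments per kilobase of gene length scaled to a library size, so genes can be set side by side. Trappc9, the targeted gene, was at 9.94 FPKM (WT) and 12.6 FPKM (KO), a ratio of 1.27 with a counting interval of 1.17 to 1.37, so its level was not lower under the KO label. Which part of the gene the allele removes is not given, and the 2 libraries are therefore called by their labels throughout. Of the mature adipocyte markers, Fabp4 had the highest mean, at 25.1 and 27.0 FPKM, and Adipoq stood at 2.30 and 0.51 FPKM, while Gpx5, an epididymal glutathione peroxidase, was at 10039 and 11686 FPKM. Markers of principal cells of the epididymis, a tissue that no sample label names, were thus far above those of mature adipocytes. Spermatid markers summed to 25.0 and 147.6 FPKM. Of those with a mean of at least 1 FPKM, 5 of 5 were at least 2-fold higher under the KO label. The share of all protein-coding genes with that mean was 0.948%. The other listed one, Acrv1, went the opposite way, at 0.43 and 0.19 FPKM, a ratio of 0.45 with a counting interval of 0.19 to 0.99. Mature adipocyte markers summed to 47.5 and 41.0 FPKM, smooth muscle markers, led by Acta2, to 615.4 and 604.7 FPKM, and 5 of 7 seminal vesicle markers were at 0 in both libraries, while Pate4 of that list stood at 0.26 and 1.96 FPKM. Where a pair of levels is given, WT comes first.

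Of the 61 Serpin genes, 16 had a mean of at least 1 FPKM over both libraries and are called measured. A further 22 were above 0 in at least 1 library but below that mean. The other 23 were listed at 0 in both, where 3 fragments, the limit that a count of 0 allows, would be at most 0.174 FPKM in the WT-labelled library and 0.172 FPKM in the KO-labelled library. The family summed to 675.4 and 773.2 FPKM, and took 0.178% and 0.188% of all fragments. Its 6 most abundant members made up 89.8% and 91.0% of the summed FPKM. These were Serpina1f, Serpinh1, Serping1, Serpina16, Serpinf1 and Serpinf2, from 4 different clades.

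**Figure D1:**
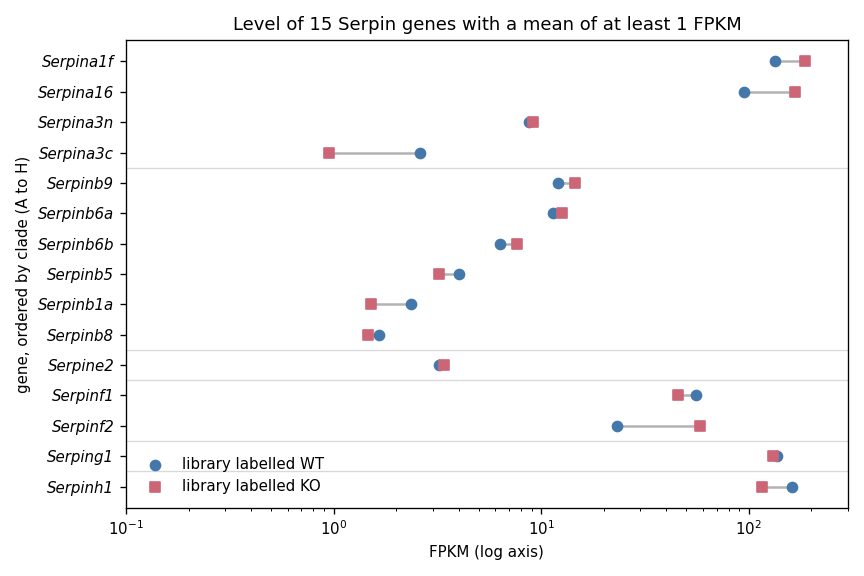
Level of 15 of the 16 measured Serpin genes in FPKM on a log axis, ordered by clade from A to H, with a circle for the WT-labelled library and a square for the KO-labelled library. Serpina1f, Serpina16, Serping1 and Serpinh1 lie at or near 100 FPKM and above, and Serpina3c and Serpinf2 have the widest gaps between the libraries.

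The log2 ratio below is that of KO + 1 FPKM over WT + 1 FPKM; the added 1 FPKM shrinks it for genes at low levels. It has a 95% Clopper-Pearson interval from the recovered fragments, which covers counting error only. Past 2-fold there was 1 higher member under the KO label and 0 lower ones among the 16, against 0.948% and 0.29% of all 13084 measured protein-coding genes (1.24% in either direction). Beyond counting error, meaning that the interval excluded a ratio of 1, 5 were higher and 6 lower, against a background of 24.6% and 17.6%, or 42.2% in either direction. The median log2 ratio of the 16 was −0.002, beside 0.02 for all measured protein-coding genes. The members thus moved to both sides. Of the 5 higher calls, 3 were also made under 3 other scalings of the libraries. Those scalings lower every ratio of KO over WT, by factors of 0.869 to 0.936, so a lower call could not be lost under them and its persistence carries no weight. Rescaled to TPM, in which the libraries have the same sum, the median of all measured protein-coding genes was −0.15, and 1031 of them were higher and 6337 lower beyond counting error, in place of 3220 and 2297.

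**Figure D2:**
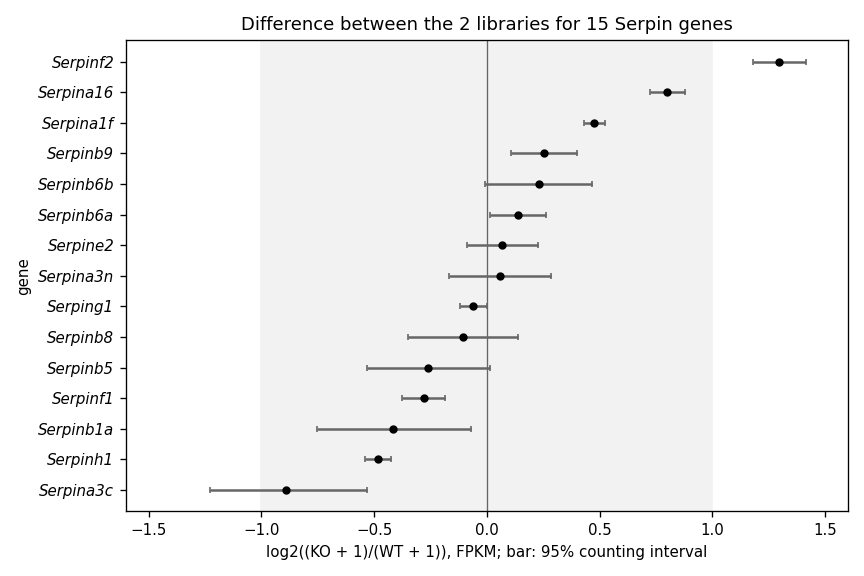
Log2 ratio of KO over WT, with a pseudocount of 1 FPKM, for 15 of the 16 measured Serpin genes; points are the values and bars are 95% counting intervals, with the range below 2-fold shaded. Serpinf2 at 1.30 is the only point outside the shaded range, and the bar of Serpina3c at −0.89 reaches past −1.

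Clade A, with 24 genes, was the most abundant clade in both libraries although only 4 of its genes were measured. It summed to 243.7 and 366.5 FPKM, which was 36.1% and 47.4% of the family. The ratio of the sums was 1.504 as deposited and 1.31 after rescaling to TPM. Of its sum, 94.2% and 96.5% came from 2 genes, Serpina1f and Serpina16. Without them the other 22 genes of clade A summed to 14.1 and 12.8 FPKM, so the higher sum in the KO-labelled library rested on this pair.

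Serpina1f (ENSMUSG00000021081, chromosome 12, 103688044 to 103695529, minus strand, mm10) was the most abundant Serpin gene over both libraries and ranked 228 by mean FPKM among all protein-coding genes. It stood at 134.5 FPKM in the WT-labelled library, from 6069 fragments, and at 187.4 FPKM in the KO-labelled library, from 8540 fragments. This gave a log2 ratio of 0.48, with a counting interval of 0.43 to 0.52. Despite its name, it is no close copy of the antitrypsin genes Serpina1a to Serpina1e. Its coding sequence matched theirs at 62.6% to 63.6% of aligned bases, near the median of 62.6% for pairs of members from different clades. Those 5 antitrypsin genes matched each other at 96.3% to 98.5%.

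Serpina16 (ENSMUSG00000071179, chromosome 12, 103668808 to 103676139, minus strand) is the next gene on the chromosome, 11.9 kb away. It stood at 95.1 FPKM, from 2131 fragments, and 166.2 FPKM, from 3762 fragments. Its log2 ratio was 0.80, with an interval of 0.72 to 0.88, and a ratio of FPKM of 1.75. Both genes exceeded their WT level in the KO-labelled library under all 4 scalings, with the ratio after rescaling to TPM at 1.21 for Serpina1f and 1.52 for Serpina16. The gap between them narrowed: Serpina1f was 1.41 times Serpina16 in the WT-labelled library and 1.13 times in the KO-labelled library.

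Most markers of epididymal principal cells, the secreting cells of the duct where sperm mature, moved the same way as this pair. Of 11 listed markers, 10 were higher beyond counting error as deposited and 0 were lower, against a background of 24.6% and 17.6%. None was at 0, and their summed level was 19419.6 and 26776.2 FPKM. The remaining marker, Ros1, had a ratio of 1.01 with an interval of 0.970 to 1.055. The 3 other scalings lower every ratio by factors of 0.869 to 0.936, and under them Ros1 would pass as lower. Rnase10, with an interval of 1.137 to 1.176, would no longer pass as higher after rescaling to TPM. Markers of epididymal clear cells, which acidify the duct, summed to 48.5 and 69.3 FPKM, with 4 of 5 higher beyond counting error as deposited. Of these, Foxi1, with an interval of 1.065 to 1.285, would no longer pass under the other scalings. The fifth listed marker, Atp6v1b1, with an interval of 0.744 to 1.112, would pass as lower after rescaling to TPM. The part of these cells in the levels of Serpina1f and Serpina16 was not tested. In such bulk libraries, a difference in the number of cells of a type and a difference in RNA per cell cannot be told apart.

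The remaining genes of the chromosome 12 cluster were low. Within it, 23 Serpina genes lie in a row, no neighbours 500 kb or more apart, from 103614786 to 104414329. The pair was flanked by Serpina6, which encodes a corticosteroid carrier and was at 0 in both libraries, and by Serpina1b at 0.029 and 0.029 FPKM. High levels were thus held by 2 adjacent genes, and neither next protein-coding neighbour shared them; a pseudogene between Serpina1f and Serpina1b, Gm5656, stood at 8.05 and 11.9 FPKM. The 5 antitrypsin genes, whose main product in blood comes from the liver, together had 7 and 12 fragments. Single values among near-identical copies are uncertain, since reads can be assigned to any of them: Serpina1e had 0 and 10 fragments and Serpina1a had 6 and 0.

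**Figure D3:**
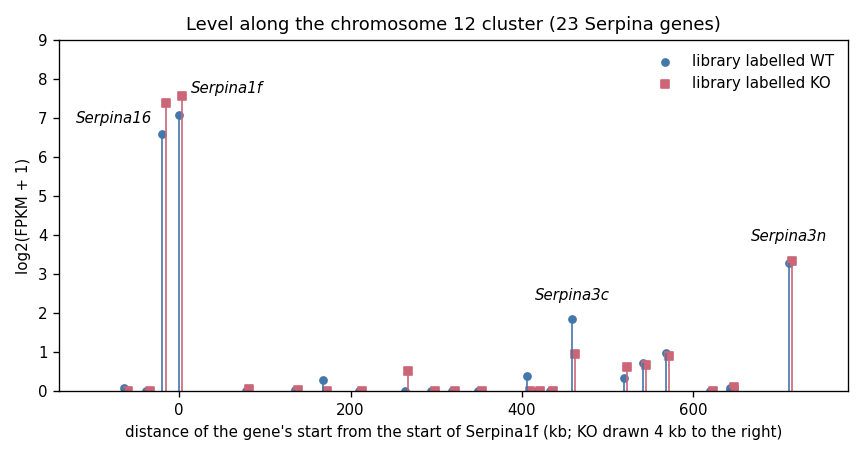
Level as log2(FPKM + 1) of the 23 Serpina genes of the chromosome 12 cluster, against the distance of each gene's start from that of Serpina1f in kb, with circles for WT and, drawn 4 kb to the right, squares for KO. Serpina16 and Serpina1f stand side by side near the left end, Serpina3n stands alone at the right end, and most genes between them lie near 0.

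The sequences before the starts of Serpina1f, Serpina16 and Serpina3c, the 3 measured members of this cluster with the largest differences, are shown because the genes share a cluster but not a direction. Each run is the 250 bases before the RefSeq start (GRCm38.p6), written 5′ to 3′ on the minus strand, which all 3 genes use. Capitals mark matches, on either strand, to 7 motifs.
Serpina1f, chr12:103695530-103695779: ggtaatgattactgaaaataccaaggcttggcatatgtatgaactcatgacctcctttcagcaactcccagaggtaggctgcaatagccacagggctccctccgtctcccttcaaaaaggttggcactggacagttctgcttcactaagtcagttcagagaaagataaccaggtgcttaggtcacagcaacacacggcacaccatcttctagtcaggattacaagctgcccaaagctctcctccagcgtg
Serpina16, chr12:103676763-103677012: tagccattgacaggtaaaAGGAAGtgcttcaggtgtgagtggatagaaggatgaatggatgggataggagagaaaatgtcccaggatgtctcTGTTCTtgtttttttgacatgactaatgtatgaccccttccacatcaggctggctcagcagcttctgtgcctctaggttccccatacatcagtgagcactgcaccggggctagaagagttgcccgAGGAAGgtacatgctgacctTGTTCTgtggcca
Serpina3c, chr12:104153873-104154122: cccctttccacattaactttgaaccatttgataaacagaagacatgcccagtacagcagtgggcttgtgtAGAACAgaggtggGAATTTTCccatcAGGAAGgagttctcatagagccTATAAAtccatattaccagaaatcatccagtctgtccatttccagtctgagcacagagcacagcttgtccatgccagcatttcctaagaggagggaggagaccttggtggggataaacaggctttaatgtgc

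The motifs were the TATA box (TATAAA), the CCAAT box (CCAAT), the GC box (GGGCGG), the androgen receptor hexamer (AGAACA), an ETS site of the PEA3 kind (AGGAAG), the heat shock element (GAANNTTC) and the AP-1 site (TGANTCA). The window of Serpina1f held none of the 7. That of Serpina16, whose RefSeq start lies 623 bases from the start in the deposited table, held 2 hexamers and 2 ETS matches. The window of Serpina3c held 1 hexamer, 1 ETS match, 1 heat shock element and 1 TATA match, the last starting 132 bases before the start. That of Serpina3n, the other measured member of the cluster, also held 1 hexamer and 1 ETS match, but no heat shock element or TATA match. The level of Serpina3n did not differ between the libraries beyond counting error. Among 32851 promoter windows of the same length, 16.1% held the hexamer, 29.5% the ETS letters, 12.4% the TATA box and 6.69% the heat shock element. A match is only a run of letters, and no binding was measured. RefSeq windows were found for 52 of the 61 members.

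Serpina3 genes, the antichymotrypsin kind, are many in mice, and 10 protein-coding ones were in the table. Together they summed to 13.4 and 12.2 FPKM, 400 and 367 fragments, and 2 were measured. Serpina3n, an acute-phase inhibitor of leukocyte proteases, stood at 8.76 and 9.15 FPKM, from 256 and 270 fragments. Its log2 ratio of 0.06, with an interval of −0.17 to 0.28, turned negative under the 3 other scalings, at −0.13 for TPM. Serpina3n was the one gene of this group above 5 FPKM.

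Serpina3c (chromosome 12, 104146382 to 104153870, minus strand) had, among the measured members, the largest difference towards the WT-labelled library. It stood at 2.62 FPKM, from 82 fragments, and 0.95 FPKM, from 30 fragments. Its level in the WT-labelled library was 2.76 times that in the KO-labelled library, with an interval of 1.80 to 4.35. The log2 ratio was −0.89 because the pseudocount weighs on a low gene, and −1.37 with a pseudocount of 0.1 FPKM. Its coding sequence matched that of Serpina3m at 90.3%, but Serpina3m had only 0.081 FPKM in the KO-labelled library and 0 in the other. Summed with its close copies Serpina3k and Serpina3m, the group stood at 2.68 and 1.06 FPKM.

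The other Serpina3 genes were below the mean of 1 FPKM. Serpina3i stood at 0.98 and 0.88 FPKM, Serpina3g at 0.67 and 0.60 FPKM and Serpina3f at 0.28 and 0.55 FPKM. These 3 resemble each other at 86.4% to 92.0% of coding bases, so how their few reads were divided is uncertain. None of the 3 differed between the libraries beyond counting error.

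Clade B had the most genes, 26, and 6 were measured, but its sum of 39.9 and 42.7 FPKM was only 5.91% and 5.53% of the family. The ratio of the sums was 1.07 as deposited and 0.93 after rescaling to TPM, so its direction depends on the scaling. The members lie in 2 clusters, on chromosomes 13 and 1. On chromosome 13, 15 genes summed to 33.0 and 37.1 FPKM. On chromosome 1, 11 genes summed to 6.95 and 5.67 FPKM.

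Serpinb9, an inhibitor of granzyme B that protects cells from their own or foreign granules, led the clade at 12.1 and 14.6 FPKM, from 597 and 728 fragments. Its log2 ratio was 0.25, with an interval of 0.11 to 0.40, and 0.065 after rescaling to TPM, where it no longer passed counting error. Granzyme B itself, Gzmb, was at 0.34 and 0.63 FPKM. Among its copies on the chromosome, Serpinb9b had 0.021 and 0 FPKM, and Serpinb9c to Serpinb9g, a run of 5 genes, were all at 0. Serpinb9 was thus the one measured gene of its set.

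Serpinb6a, an inhibitor of cathepsin G and other granule proteases, stood at 11.4 and 12.6 FPKM, from 872 and 976 fragments. Its log2 ratio was 0.14 as deposited and −0.05 after rescaling to TPM, so no direction is given. On the opposite strand it overlaps Ripk1 and Nqo2, which were at 6.24 and 5.45 FPKM and at 3.28 and 3.10 FPKM, and no source states whether counting used strand. Serpinb6b, its neighbour in kind, stood at 6.37 and 7.63 FPKM, a log2 ratio of 0.23 with an interval of −0.01 to 0.47. The 2 genes match at 86.3% of coding bases. Serpinb6d and Serpinb6e were at 0 in both libraries.

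Serpinb1a, an inhibitor of neutrophil elastase, stood at 2.36 and 1.52 FPKM, from 77 and 50 fragments. The log2 ratio was −0.42, with an interval of −0.76 to −0.07, beyond counting error. Its close copy Serpinb1b, at 90.7% of coding bases, was at 0.55 and 0.54 FPKM, and the 2 summed to 2.91 and 2.06 FPKM. The elastase gene, Elane, was at 0 in both libraries. Neutrophil markers had 1 measured member higher and 1 lower beyond counting error, and summed to 11.6 and 25.9 FPKM; the one with the highest mean was the lactoferrin gene Ltf, which other secreting epithelia also make, at 4.26 and 21.8 FPKM. The lower one was Mmp9, at 3.31 and 2.29 FPKM. Of the remaining neutrophil markers, S100a8 and S100a9 were at 0.81 and 0.30 FPKM and at 2.98 and 1.47 FPKM, both within counting error. The part of neutrophils was not tested.

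Serpinb5, known as maspin, an epithelial protein that does not block proteases, stood at 4.03 and 3.20 FPKM, from 157 and 126 fragments. Its log2 ratio of −0.26 had an interval of −0.53 to 0.01 and did not pass counting error as deposited, but it did under the 3 other scalings, which lower every ratio. Markers of basal epithelial cells summed to 118.6 and 103.3 FPKM, and their part was not tested. Of these 4 markers, 3 were lower beyond counting error, against 17.6% of all measured protein-coding genes. Serpinb8, which can block the protease furin, stood at 1.65 and 1.46 FPKM, within counting error, and Furin at 15.6 and 16.8 FPKM. Serpinb2, an inhibitor of plasminogen activators, was below the minimum mean, at 0.90 and 0.86 FPKM. The skin-type genes Serpinb3a, Serpinb3b, Serpinb3c, Serpinb3d, Serpinb7 and Serpinb13 were all at 0, while Serpinb12 had 13 and 4 fragments. Serpinb12 was lower beyond counting error, narrowly, with an interval of its ratio of 0.072 to 0.986.

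Plasminogen activators, the proteases that start clot removal, were within counting error as deposited: Plau stood at 27.0 and 26.0 FPKM and Plat at 10.5 and 9.87 FPKM. Their ratios had intervals up to 1.06 and 1.04. Under the 3 other scalings, which lower every ratio by factors of 0.869 to 0.936, both would pass as lower. Their similarity thus depends on the scaling. Serpine2, protease nexin-1, an inhibitor of thrombin and urokinase at the cell surface, was at 3.20 and 3.41 FPKM, within counting error. Its log2 ratio of 0.07 turned negative under the 3 other scalings (−0.09 for TPM). Serpine3 had 3 and 1 fragments.

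Clade F has 2 genes that lie next to each other on chromosome 11, 9.03 kb apart and both on the minus strand, and they went in opposite directions. Serpinf2 (ENSMUSG00000038224, 75431732 to 75439591) encodes the main inhibitor of plasmin, made chiefly by the liver. It stood at 23.1 FPKM in the WT-labelled library, from 762 fragments, and 58.3 FPKM in the KO-labelled library, from 1937 fragments. Among the measured members, this was the one log2 ratio past 2-fold with the added 1 FPKM, at 1.30 with an interval of 1.18 to 1.41. It was a ratio of FPKM of 2.52 as deposited and 2.19 after rescaling to TPM.

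Serpinf1 (ENSMUSG00000000753, 75409769 to 75422701) encodes PEDF, a secreted protein that limits vessel growth and does not block proteases. It stood at 55.5 FPKM, from 1854 fragments, and 45.5 FPKM, from 1536 fragments. The difference was a log2 ratio of −0.28, with an interval of −0.38 to −0.18. The order of the neighbours therefore turned: Serpinf1 was 2.40 times Serpinf2 in the WT-labelled library and 0.781 times in the KO-labelled library. The genes on either side, Smyd4 at 2.14 and 2.12 FPKM and Wdr81 at 6.41 and 8.10 FPKM, were far below both.

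Liver markers were low in both libraries. Of the 8 listed symbols, 7 were in the table and none was at 0. They summed to 7.78 and 10.1 FPKM, with Alb, albumin, at 1.69 and 0.45 FPKM. The fibrinogen gene Fga, at 2.96 and 7.76 FPKM, was higher in the KO-labelled library, whereas Alb and Fgb, at 0.167 and 0.0183 FPKM, were lower, all 3 beyond counting error. Plasminogen, Plg, the precursor of the protease that Serpinf2 blocks, was at 0.0190 and 0.0188 FPKM, 1 fragment in each library. Most of the epididymal markers given above were also higher in the KO-labelled library, and the part of either cell type in the level of Serpinf2 was not tested.

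The single members of clades G and H were abundant in both libraries. Serping1, the C1 inhibitor, which restrains the first complement proteases and kallikrein, stood at 136.7 and 131.0 FPKM, from 4501 and 4358 fragments. Its ratio of 0.959 had an interval of 0.919 to 0.9998 as deposited, so it passed counting error narrowly. Its target proteases C1ra and C1s1 stood at 24.7 and 20.3 FPKM and at 48.6 and 39.7 FPKM. Of 9 measured genes of the complement list, 5 were lower beyond counting error and 1 was higher, with a median of −0.27. Among all measured protein-coding genes, 17.6% were lower and 24.6% higher.

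Serpinh1 (ENSMUSG00000070436, chromosome 7, 99345376 to 99353239, minus strand) encodes Hsp47. It was the most abundant Serpin gene in the WT-labelled library, at 161.3 FPKM from 5583 fragments, and ranked below Serpina1f, Serpina16 and Serping1 in the KO-labelled library, at 115.3 FPKM from 4028 fragments. Its log2 ratio was −0.48, with an interval of −0.54 to −0.42, and −0.68 after rescaling to TPM. Of the fibrillar collagens that it helps to fold, 7 of 9 listed were measured. All 7 were lower beyond counting error, against 17.6% of all measured protein-coding genes, and their median was −0.49. They include Col3a1 at 480.8 and 312.2 FPKM, a ratio of 0.649 against 0.714 for Serpinh1, and Col1a1 at 530.6 and 377.2 FPKM. Serpinh1 was 0.120 times their summed FPKM in the WT-labelled library and 0.124 times in the KO-labelled library. Its partners in collagen folding were mixed, 4 higher and 8 lower of 16, against 24.6% and 17.6% of all measured protein-coding genes. Of these partners, Fkbp10 stood at 18.6 and 12.5 FPKM and P4ha2 at 10.3 and 19.3 FPKM. Adipose progenitor markers, 5 of 8 of them lower, the other 3 higher beyond counting error and none at 0, summed to 218.4 and 194.5 FPKM. Mesothelium markers, 4 of 5 of them lower and 1 higher beyond counting error, summed to 62.6 and 52.4 FPKM. The part of either cell type in the level of Serpinh1 was not tested.

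The clades with few genes differed in direction. Clade F summed to 78.6 and 103.8 FPKM, a ratio of 1.32. The ratio for clade H was 0.714 and for clade G 0.959. The whole family had a ratio of 1.14 as deposited and 0.995 after rescaling to TPM. As shares of the summed FPKM, clade G held 20.2% and 16.9%, clade H 23.9% and 14.9%, and clade F 11.6% and 13.4%.

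**Figure D4:**
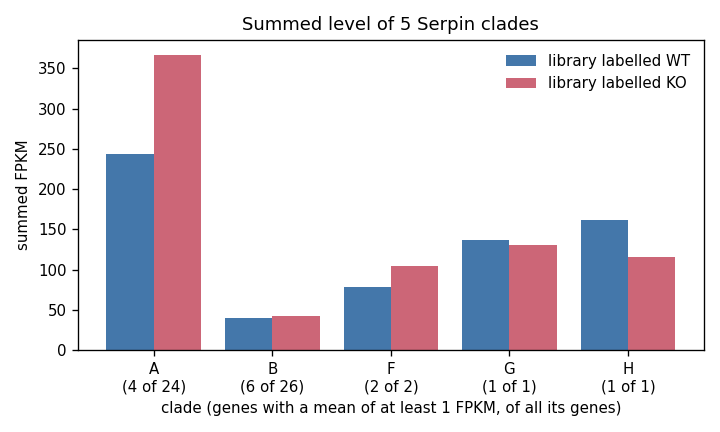
Summed FPKM of 5 Serpin clades with measured genes (A, B, F, G and H), with 1 bar for each library and, below each letter, the number of measured genes of all genes in the clade. Clade A is the tallest in both libraries and higher in the KO-labelled library, at 366.5 FPKM, while clade H is lower there, at 115.3 FPKM.

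The order of levels changed at the top. In the WT-labelled library, Serpinh1 came first, followed by Serping1 and Serpina1f, which did not differ from each other beyond counting error, then Serpina16, Serpinf1 and Serpinf2. In the KO-labelled library, the order was Serpina1f, Serpina16, Serping1, Serpinh1, Serpinf2 and Serpinf1, each step beyond counting error. Further down in the WT-labelled library, Serpina3c did not differ from either of its neighbours in the order, Serpine2 and Serpinb1a. In the KO-labelled library, Serpine2 and Serpinb5 did not differ, nor did Serpinb1a and Serpinb8.

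Several serpins of blood plasma and of hormone transport were near or at 0. Antithrombin, Serpinc1, had 2 fragments in each library, and heparin cofactor II, Serpind1, had 3 and 2 fragments. The thyroxine carrier Serpina7 had 2 fragments in each library, and Serpina5, the protein C inhibitor, had 10 and 0. Serpina12, known as vaspin and described as a secreted product of fat, was at 0 in both, where 3 fragments would be 0.0574 and 0.0568 FPKM. Serpini1, neuroserpin, stood at 0.20 and 0.30 FPKM within counting error, and Serpini2 was at 0. Of these genes, Serpina5 was lower in the KO-labelled library beyond counting error, and no difference was detectable at this depth in the others.

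Proteases, cofactors and receptors that serpins act with were described from 11 lists. Of 101 measured genes in them, 0 were at least 2-fold higher and 1 at least 2-fold lower, while 28 were higher and 41 lower beyond counting error, against the same background of 24.6% and 17.6%. The list of clearance receptors, which take up serpins bound to proteases, had a median of 0.20 as deposited and 0.0097 after rescaling to TPM, with 5 of 8 higher and 2 lower beyond counting error as deposited. Its members included Sort1 at 154.4 and 179.6 FPKM and Lrp2 at 8.18 and 10.0 FPKM, while Lrp1 stood at 29.6 and 25.8 FPKM.

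Coagulation genes had a median of −0.17, and beyond counting error 4 of 10 were lower and 1 was higher. The largest differences among the more abundant ones were in the clot-stabilising enzyme gene F13a1, at 11.2 and 8.15 FPKM, and in Procr, the protein C receptor gene, at 6.36 and 4.72 FPKM. Fibrinolysis genes had a median of −0.05, with 2 higher and 2 lower of 8, and Thbd, which encodes the thrombin receptor thrombomodulin, was at 31.9 and 23.5 FPKM. Thrombin itself, F2, had 1 fragment in each library.

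Membrane and tissue serine proteases had a median of −0.12, with 4 of 12 higher and 6 lower, among them Pcsk5 at 11.9 and 17.5 FPKM and Htra3 at 31.7 and 22.3 FPKM. Leukocyte and lysosomal proteases had a median of 0.05, with 4 of 9 higher and 1 lower. The cathepsin genes Ctss, at 22.4 and 29.2 FPKM, and Ctsl, at 57.9 and 72.1 FPKM, were higher, and Ctsh, at 46.8 and 40.6 FPKM, was lower. In the list of PEDF receptors and partners, 3 of 5 were higher and 1 lower, with Plxdc2 at 9.92 and 7.48 FPKM. Hormone handling genes split 2 and 2 of 9, with the glucocorticoid receptor gene Nr3c1 at 11.8 and 10.6 FPKM. The renin-angiotensin list held the 2-fold lower gene, the angiotensin receptor gene Agtr2 at 7.79 and 3.32 FPKM, and also Ace at 108.4 and 168.9 FPKM.

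**Figure D5:**
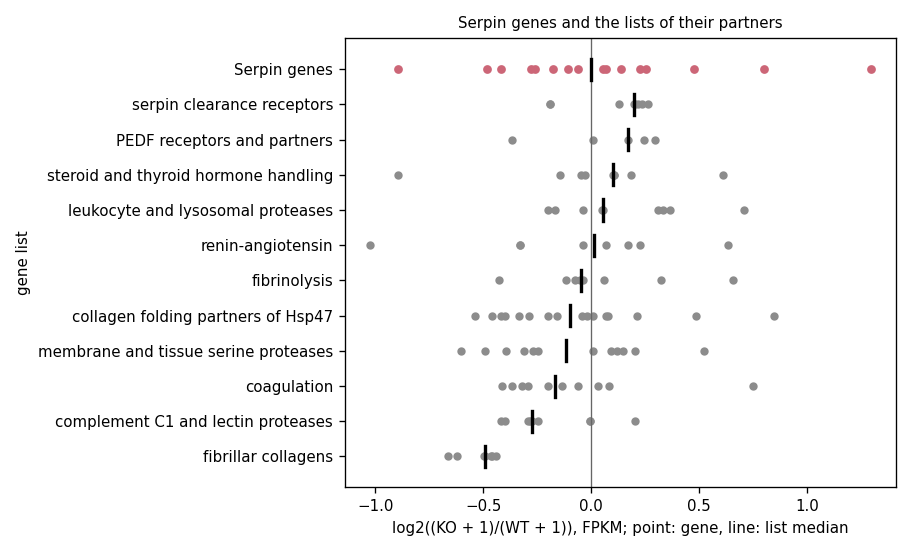
Log2 ratio of KO over WT, with a pseudocount of 1 FPKM, for each measured gene of the 11 partner lists and of the 16 measured Serpin genes; points are genes and the black line is each list's median. The Serpin genes spread from −0.89 to 1.30 around a median near 0, and the fibrillar collagens lie together around −0.49.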

How the data were processed

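Expression was deposited as FPKM, 1 value for each gene in a library, beside gene length, position and biotype, per the file headers. HISAT2 2.0.5 is named in the submitters' processing notes, as are 2 builds, mm10 and hg38; the fragment counter and its use of strand are not given in these sources. All 61 members had the same chromosome, start and end in GENCODE M21 (GRCm38, also called mm10). Fragments were recovered from FPKM times gene length, which came out whole, within 0.01 of a fragment, for 100% of values above 0. A fragment on 1 kb was worth 0.0706 and 0.0699 FPKM. Without molecular identifiers, intervals and limits cover counting error only. Groups came from the genotype labels. With 1 library per genotype no test was possible. Members and gene lists were chosen with earlier results of these data known. Of the 16 measured members 15 are named; 1 is counted in the totals but not reported here; lower ones were named above 0.5 FPKM or after their values were seen. Of each partner list, genes were named from the 4 with the largest ratio at a mean of at least 5 FPKM, others after their values were seen. Of the marker lists, the rule names the most abundant gene; any more were picked with values known. Coding identity came from global alignments of GENCODE M21 coding sequences (Biopython 1.88) and promoters from RefSeq. Recovery and intervals were tested on data simulated with counting error alone, so that test does not cover variation between animals or libraries. Python 3.11.15, pandas 2.3.3, NumPy 2.4.6, SciPy 1.17.1 and Matplotlib 3.10.9 were used. The alternatives covered pseudocount, filter, scaling and paralogues.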

Additional observations from a re-analysis of the deposited data

Results flagged for a closer look

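Gm5656, an unprocessed pseudogene (chromosome 12, 103699528 to 103704619) between Serpina1f and Serpina1b, lies outside the members because it is not annotated as protein-coding. It stood at 8.05 FPKM in the WT-labelled library, from 125 fragments, and at 11.9 FPKM in the KO-labelled library, from 187 fragments, a ratio of 1.48 with a 95% counting interval of 1.17 to 1.87. It was singled out as a signal in data that the comparisons do not use, above the level in the WT-labelled library. Its transcript matched the coding sequence of Serpina1f at 64.9% and that of Serpina16 at 65.5% of aligned bases. The match was higher with Serpina1b, at 66.7%, and with Serpina6, at 65.8%, and lower with Serpina3n, at 63.0%. All these values lie within the 56.2% to 67.7% found between members of different clades.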

How the results depend on the processing

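With 1 library per genotype, counting error is the only error known, and members below the mean of 1 FPKM rest on at most 31 fragments in a library. No paired analysis was possible because each genotype had 1 library. No protein table was used, so paralogues were grouped by coding identity of at least 90%, chosen after seeing the data; ratios relative to the median of all genes were also added then. The count of members at least 2-fold lower, 0 as reported, was 1 with a pseudocount of 0.1 FPKM and 1 after rescaling to TPM, in both cases Serpina3c. Members higher beyond counting error fell from 5 to 3 after rescaling to TPM, where Serpinb9 and Serpinb6a no longer passed and Serpinb6a was at −0.05. The clade A median of 0.27 was −0.00058 with no filter on FPKM, 0.48 at a minimum mean of 5 FPKM, 0.075 after rescaling to TPM, 0.59 as the ratio of sums and 0.056 without Serpina1f. The clade B median of 0.01 was 0.23 at a minimum mean of 5 FPKM. The clade F median of 0.51 was 0.31 after rescaling to TPM, 0.40 as the ratio of sums and 1.30 without Serpinf1. Rescaling to TPM gave −0.26 for clade G and −0.68 for clade H. Rescaling without the 100 most abundant genes gave −0.16 for clade G and −0.59 for clade H, and scaling by recovered fragments −0.15 and −0.58. The median of the chromosome 12 cluster, 0.27 as deposited, was −0.0004 with no filter, 0.48 at a minimum mean of 5 FPKM and 0.075 after rescaling to TPM. That of the chromosome 13 cluster, 0.18 as deposited, was −0.005 with no filter and 0.0012 after rescaling to TPM. That of the chromosome 11 cluster, 0.51 as deposited, was 0.31 after rescaling to TPM. Without the filter, the medians of clade A and of the chromosome 12 and 13 clusters fall among genes at or near 0 by construction. Partner genes at least 2-fold higher or lower numbered 1 and 2 with a pseudocount of 0.1 FPKM, and 0 were lower with 5 FPKM. The membrane protease median was 0.095 with no filter, and the PEDF partner median −0.024 after rescaling to TPM; the clearance receptor median of 0.20 was 0.0097 after rescaling to TPM, 0.10 without the 100 most abundant genes, 0.11 by recovered fragments and 0.11 as a mean. Without the most abundant member of each, the shares of the family in the WT- and KO-labelled libraries were 20.2% and 30.6% for clade A, 4.2% and 3.71% for clade B, and 3.73% and 8.01% for clade F. Except as given, the cause was not tested. Of the 15 measured members named, 12 kept the sign of their log2 ratio in all 11 alternatives, the exceptions being Serpinb6a, Serpina3n and Serpine2. The changes of pseudocount and of filter could not alter the sign of any single member. The scalings could not alter it for members already lower. Under these alternatives a kept sign therefore carries no weight.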

Other observations

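Agt, angiotensinogen, the precursor of the pressor hormone angiotensin, belongs to the serpin family although its symbol does not start with Serpin. It stood at 53.4 and 56.0 FPKM, from 1431 and 1516 fragments, a ratio of 1.05 with a 95% counting interval of 0.975 to 1.13. At this level it would rank among the abundant members, near Serpinf1. Of the 7 Serpin symbols annotated as pseudogenes, the most abundant was Serpina3h at 1.13 and 0.59 FPKM, from 23 and 12 fragments, followed by Serpina3e-ps at 0.40 and 0.57 FPKM. Both lie among the Serpina3 genes, and neither differed beyond counting error. Serpinb10, annotated as a polymorphic pseudogene, had 12 fragments in the WT-labelled library and 2 in the KO-labelled library. It was lower beyond counting error, with a ratio of 0.165 and an interval of 0.018 to 0.741, on these few fragments.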
